A study of Mus musculus with 40 samples.

Results

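The data described here compare KA and KQ, 2 lysine mutants of histone H2A.Z.1, in the hippocampus of male mice, and they come from 9 of the 40 mice sequenced. The mutants differ at the same 3 sites of the N-terminal tail, where lysines 4, 7 and 11 are replaced by alanine in KA, a form that cannot be acetylated there, and by glutamine in KQ, a form that mimics acetylation. The members were chosen by the sample titles alone, as the male mice that carry KA (mice 5, 25, 26 and 43) or KQ (mice 8, 27, 28, 44 and 45). The study gives both H2A.Z genes, H2az1 and H2az2, as floxed in all mice. All 9 received AAV with Cre under the synapsin promoter, which drives expression in neurons, together with an AAV in which the CMV promoter drives 3xMyc-H2A.Z.1-p2A-GFP in its KA or KQ form, so both groups combine deletion of the native genes with a replacement. Viruses were injected into the hippocampus of both hemispheres, and RNA of hippocampal tissue was sequenced with 1 library per mouse. Male mice used only for reference were 5 with the unmutated replacement (WT), 4 with Cre and 3xMyc alone (KO) and 4 with 3xMyc and no Cre (Myc), whose genotype the labels give as WT rather than floxed. Female mice with KA (4) or KQ (3) were used for the comparison of the sexes. Age and strain are not given in the sources used here.

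H2A.Z replaces the ordinary H2A in nucleosomes around transcription start sites and is exchanged during memory formation. Acetylation of its tail by histone acetyltransferases such as Tip60 accompanies active transcription, whereas H2A.Z without acetylation is found at silent or poised genes. Alanine removes the positive charge and the acetylation site, and glutamine removes the charge while resembling acetyl-lysine in shape. The first codons of mouse H2az1 are printed here because they hold the mutated sites, in the endogenous form from an annotation of GRCm39 (GENCODE vM39), where the gene lies on chromosome 3 from 137570072 to 137572690 on the plus strand. The 14 codons run 5′ to 3′ from the start codon, and capitals mark the codons of lysines 4, 7 and 11, counted without the initiator methionine.
H2az1 coding start: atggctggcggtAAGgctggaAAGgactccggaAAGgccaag

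Total counts were 35475876 to 39567535 in the 4 KA mice and 26221299 to 42674291 in the 5 KQ mice. Between mice of a group the counts varied beyond counting error (chi-square over its degrees of freedom 18.6 to 85.6, highest for KQ mice 44 and 45). Values below are in CPM, counts scaled with TMM to a common library total, and they compare a gene between mice but not genes with each other, since CPM is not divided by length. Log2 fold changes give KA over KQ with their standard error (SE). The test was edgeR's quasi-likelihood test on 28449 genes, and a gene counts as changed at an adjusted p (Benjamini-Hochberg) under 0.05. The p-values measure the spread between mice. In bulk tissue, fewer cells of a type and less RNA per cell cannot be told apart.

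H2az1, the gene that both viruses supply, was the check of the labels. It stood at 43.8, 40.1, 40.9 and 43.2 CPM in the KA mice and at 33.6, 33.7, 36.6, 33.1 and 50.1 CPM in the KQ mice. KQ mouse 45 had the highest H2az1 of all 9 mice and the other 4 KQ mice had less than every KA mouse, so the groups overlapped through mouse 45 alone. The log2 fold change was 0.17 (SE 0.151, edgeR adjusted p = 0.728). H2az1 averaged 40.2 ± 4.48 CPM (SD, n = 5) in WT, 31.5 ± 9.37 CPM (SD, n = 4) in KO and 32.8 ± 4.38 CPM (SD, n = 4) in Myc males, which overlapped, so that tissue counts do not check the deletion. Counts per gene do not separate viral from native transcripts or one mutant from the other, so the counts do not check which mutant a mouse received. H2az2, which encodes the second H2A.Z protein and was not supplied by any virus, stood at 28.4, 24.7, 25.2 and 24.9 CPM in KA and at 20.2, 23.3, 19.5, 21.8 and 27.6 CPM in KQ mice (log2 fold change 0.20, SE 0.101, edgeR adjusted p = 0.49). Here too KA and KQ were separated except for mouse 45. H2az2 stood at 20.8 to 29.3 CPM in KO and at 20.6 to 26.5 CPM in Myc males. These overlapped, and H2az2 was not lower in KO or KA than in Myc, so its counts do not check the deletion either. The study reports reduced H2az2 mRNA in all groups given Cre.

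The comparison asks whether an acetylation-defective tail and an acetyl-mimicking tail go with different transcripts in male hippocampus. No gene passed: 0% of the 28449 genes tested with edgeR had an adjusted p under 0.05, and the smallest adjusted p was 0.121. At an unadjusted p under 0.05, 1245 genes (4.38%) were higher and 1748 (6.14%) lower in KA, 2993 in all, where 1422 would be 5% of the genes. Every KA mouse stood above every KQ mouse for 294 genes (1.03%) and below every KQ mouse for 369 (1.3%). The median log2 fold change over all genes was 0.0035. DESeq2, run on the same counts, called 2 genes higher in KA (0.00873% of the 22907 genes for which it gave an adjusted p) and 22 lower (0.096%). Of the 22, 5 were immunoglobulin variable genes, which have near-identical copies among which reads may be split, and 15 of the other 17 had every KA mouse below every KQ mouse.

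The genes at the head of the list that were lower in KA hold a zinc finger repressor, a Krüppel-like factor and a glutamate receptor. Zfp738, a KRAB zinc finger gene (chromosome 13, 67806804 to 67835190), stood at 16.0, 17.3, 16.4 and 16.4 CPM in KA and at 22.5, 22.1, 19.4, 26.7 and 20.1 CPM in KQ mice. The 4 KA mice lay close together and below all 5 KQ mice (log2 fold change -0.42, SE 0.0845, edgeR adjusted p = 0.181, DESeq2 adjusted p = 0.00199). Klf7, a transcription factor of neuronal differentiation and axon growth (chromosome 1, 64068606 to 64161508), stood at 37.4, 39.5, 33.7 and 35.5 CPM against 45.3, 52.3, 47.1, 53.3 and 40.9 CPM. Its groups did not overlap either, with KQ mouse 45 nearest to the KA mice (log2 fold change -0.39, SE 0.0841, edgeR adjusted p = 0.306, DESeq2 adjusted p = 0.0176). Gria4, which encodes the GluA4 subunit of AMPA-type glutamate receptors (chromosome 9, 4417604 to 4796326), stood at 49.0, 72.0, 57.3 and 58.5 CPM in KA and at 78.1, 97.9, 76.6, 91.0 and 79.5 CPM in KQ mice. The highest KA mouse, 25, was below the lowest KQ mouse, 28 (log2 fold change -0.51, SE 0.115, edgeR adjusted p = 0.306, DESeq2 adjusted p = 0.0267). Lrrc19, a leucine-rich repeat gene known from epithelia, had the smallest p of all genes (log2 fold change -2.07, SE 0.386, edgeR adjusted p = 0.121) at a very low level, 2 to 5 counts per KA mouse and 13 to 15 per KQ mouse. Gm39463, an unnamed locus, was also lower at under 1 CPM in all 9 mice (-1.33, SE 0.304, edgeR adjusted p = 0.306).

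In the other direction, the smallest p-values belonged to Inka1, Igkv14-126, Gm46546, Nbl1 and Tacr2. Mfng is given with them as a gene that the study follows. Inka1, an inhibitor of the PAK4 kinase (chromosome 9, 107861224 to 107863123), stood at 5.99, 4.97, 6.01 and 6.04 CPM in KA and at 4.12, 2.87, 3.28, 3.02 and 4.07 CPM in KQ mice. Every KA mouse was higher, and mouse 25 was the lowest of them (log2 fold change 0.73, SE 0.152, edgeR adjusted p = 0.239, DESeq2 adjusted p = 0.00379). Nbl1, a secreted antagonist of BMP ligands (chromosome 4, 138809243 to 138820367), stood at 49.5, 55.8, 54.9 and 59.5 CPM against 35.3, 36.7, 40.1, 40.3 and 41.2 CPM, again without overlap (0.50, SE 0.126, edgeR adjusted p = 0.326). Mfng, a glycosyltransferase that modifies Notch receptors (chromosome 15, 78640074 to 78657718), stood at 6.1, 4.21, 5.01 and 4.31 CPM against 2.94, 2.71, 2.97, 2.59 and 3.94 CPM. Mouse 45 had the most Mfng among the KQ mice and still less than every KA mouse (0.69, SE 0.176, edgeR adjusted p = 0.326). Gm46546, a processed pseudogene, was the other gene that DESeq2 called higher. It stood at 0.997 to 1.9 CPM in KA and at 0.314 to 0.937 CPM in KQ mice (1.14, SE 0.278, edgeR adjusted p = 0.326). Tacr2, a tachykinin receptor, had 6 to 10 counts per KA mouse and 0 to 3 per KQ mouse. Igkv14-126, an immunoglobulin variable gene, owed its place to mouse 43, with 67 counts there and 0 to 2 in the other 8 mice.

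**Figure D1:**
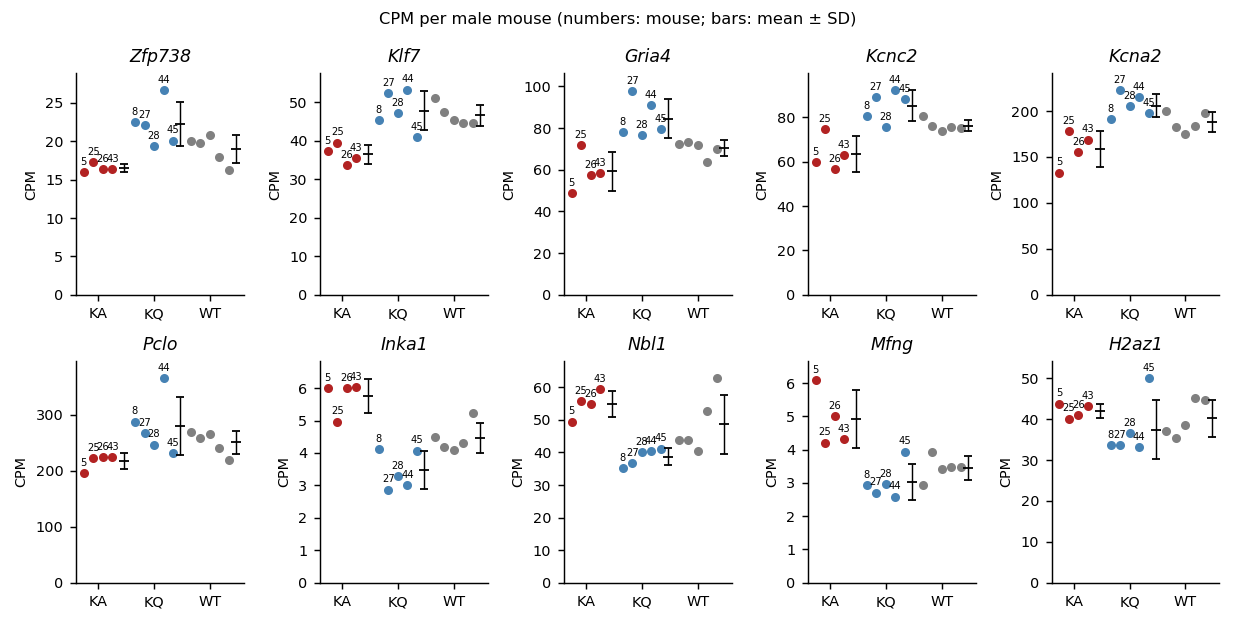
CPM (vertical axes, starting at 0) of 10 genes in male KA, KQ and WT mice, with points for mice, mouse numbers beside the KA and KQ points and bars for mean ± SD. The KA and KQ points do not overlap for Zfp738, Klf7, Gria4, Kcnc2, Kcna2, Pclo, Inka1, Nbl1 and Mfng, while for H2az1 mouse 45 (50.1 CPM) lies above all KA mice.

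Further genes that DESeq2 called lower in KA, given here because it called them, included Gas2, Slc30a4, Mybpc1, Ubxn2a, Lekr1, Tlcd4, Grik1, Dmrt2, Exoc2, Zfp612, Mdga2 and Eif5a2, beside Lrrc19, Zfp738, Klf7 and Gria4. Of these, Grik1 encodes a kainate-type glutamate receptor subunit, Mdga2 a membrane protein that restrains synapse formation through neuroligins, and Slc30a4 a zinc transporter. Mdga2 stood at 30.3, 37.8, 31.0 and 37.7 CPM in KA and at 45.9, 44.9, 43.3, 58.8 and 38.9 CPM in KQ mice, without overlap (log2 fold change -0.44, SE 0.104, edgeR adjusted p = 0.306). Grik1 overlapped, at 8.24 to 12.6 CPM in KA and 11.8 to 17.4 CPM in KQ mice (-0.57, SE 0.135, edgeR adjusted p = 0.306).

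Among the 12 genes that the study itself follows by RNA or chromatin assays, 1 had an unadjusted p under 0.05 in the edgeR test besides Mfng, namely Gadd45b, a DNA damage and activity-induced gene. Gadd45b stood at 12.8, 10.4, 12.9 and 12.1 CPM in KA and at 10.5, 10.1, 9.21, 7.45 and 10.6 CPM in KQ mice, with KA mouse 25 inside the KQ range (0.34, SE 0.135, edgeR adjusted p = 0.406). Kiss1r, the kisspeptin receptor, stood at 3.21 to 3.76 CPM in KA and 3.56 to 5.79 CPM in KQ mice (-0.31, SE 0.156, edgeR adjusted p = 0.479). Kcnc1, the Kv3.1 potassium channel, stood at 86.1 to 114 and 108 to 121 CPM (-0.17, SE 0.108, edgeR adjusted p = 0.59), and Dkk2, a secreted Wnt inhibitor, at 0.647 to 1.85 and 0.838 to 1.57 CPM. The activity-induced genes Arc (64.4 to 103 and 47.5 to 123 CPM) and Fos (6.53 to 11.8 and 4.54 to 13.6 CPM) spread as widely within each group as between them. So did Th, the dopamine-synthesis enzyme, at 0.512 to 0.786 CPM in KA and 0.384 to 1.36 CPM in KQ mice. Fkbp5, a glucocorticoid-induced chaperone, stood at 50.3 to 62 CPM in KA and at 46.7 to 50.6 CPM in KQ mice, touching only at the edge (0.15, SE 0.13, edgeR adjusted p = 0.708). B2m, which encodes the invariant chain of class I MHC, ran from 383 to 1060 CPM in KA and from 273 to 747 CPM in KQ mice (0.37, SE 0.274, edgeR adjusted p = 0.646).

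Genes for fast neuronal signalling were more often lower than higher in KA, though none of them passed the edgeR test. DESeq2 called Gria4 and Grik1 among them. Of 39 glutamate receptor genes, 30 were lower in KA, with a median log2 fold change of -0.12, and 7 were lower and 2 higher at an unadjusted p under 0.05. Of 71 potassium channel genes, 49 were lower (median -0.13, with 7 lower and 1 higher at an unadjusted p under 0.05), and of 32 sodium, calcium, HCN and leak channel genes 25 were lower (median -0.12, 6 and 0). Of 20 genes for GABA receptors and GABA synthesis, 17 were lower (median -0.18, 6 and 0). Of 46 genes of presynaptic vesicle release, 33 were lower (median -0.10, 6 and 0), whereas the 38 postsynaptic scaffold and signalling genes were close to all genes (median -0.027, 5 and 0). Over all genes tested, the unadjusted shares were 4.38% higher and 6.14% lower and the median was 0.0035.

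A few channel genes separated the groups mouse by mouse. Every KA mouse was below every KQ mouse for 3 of 71 potassium channel genes and 2 of 32 sodium, calcium, HCN and leak channel genes. The share over all genes was 1.3%. The genes below were taken for their small p, which favours separated groups. Kcnc2, the Kv3.2 channel of fast-spiking neurons, stood at 59.7, 74.7, 56.6 and 63.1 CPM in KA and at 80.6, 89.3, 75.7, 92.4 and 88.4 CPM in KQ mice. Every KA mouse was lower, with KA mouse 25 and KQ mouse 28 nearest to each other (log2 fold change -0.43, SE 0.107, edgeR adjusted p = 0.326). Kcna2, the Kv1.2 channel of axons, stood at 133, 178, 155 and 169 CPM against 191, 223, 205, 215 and 198 CPM, with a wider gap (-0.38, SE 0.0998, edgeR adjusted p = 0.346). Kcnh7, an Erg-type channel, had 49.8 to 65.4 CPM in KA and 71.6 to 94.3 CPM in KQ mice (-0.58, SE 0.157, edgeR adjusted p = 0.346). Nalcn, the sodium leak channel that sets resting excitability, had 61.3 to 74 and 77.6 to 92.9 CPM (-0.35, SE 0.115, edgeR adjusted p = 0.361). Pclo, the active-zone scaffold Piccolo, had 196 to 225 CPM in KA and 232 to 365 CPM in KQ mice (-0.36, SE 0.163, edgeR adjusted p = 0.432), with mouse 44 far above the rest. Scn1a, the Nav1.1 channel, overlapped because KQ mouse 8 (95 CPM) lay inside the KA range of 67.6 to 106 CPM, while the other 4 KQ mice had 127 to 138 CPM (-0.49, SE 0.14, edgeR adjusted p = 0.346). Kcnj4, an inward rectifier, went the other way, with 80 to 94.1 CPM in KA and 60.1 to 81.8 CPM in KQ mice (0.31, SE 0.112, edgeR adjusted p = 0.388).

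The receptors of both fast transmitters gave a similar picture with more overlap. Gabra3 and Gabrg3, subunits of GABA-A receptors, had log2 fold changes of -0.55 (SE 0.226) and -0.34 (SE 0.131), and Gphn, the scaffold gephyrin of inhibitory synapses, one of -0.22 (SE 0.0891). Neto2, an auxiliary kainate receptor subunit, was at -0.30 (SE 0.10) and Grm8, a presynaptic metabotropic receptor, at -0.52 (SE 0.17). Rims2, a vesicle priming protein, was at -0.32 (SE 0.126). Cacnb4, a calcium channel beta subunit, was at -0.41 (SE 0.119). All of these had an edgeR adjusted p of at least 0.346 and overlapping groups. Fgf12 and Fgf11, intracellular relatives of growth factors that bind sodium channels, were lower in every KA mouse: Fgf12 had 127 to 161 CPM in KA and 167 to 208 CPM in KQ mice (-0.42, SE 0.121, edgeR adjusted p = 0.346), and Fgf11 had 25.7 to 32.2 and 33.3 to 38.4 CPM. Fgf17 was higher in every KA mouse, with 11 to 16 counts per KA mouse and 0 to 7 per KQ mouse (1.26). Of all 22 genes for Fgf ligands and receptors, 11 were higher and 11 lower (median -0.026). Elavl4, a neuronal RNA-binding protein, had 57 to 76.8 CPM in KA and 81.1 to 102 CPM in KQ mice (-0.51, SE 0.168, edgeR adjusted p = 0.361).

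As a mean over a list, taken in each mouse as log2 CPM relative to the Myc males, the channel and receptor lists overlapped between the groups. The glutamate receptor list stood at -0.33, -0.048, -0.20 and -0.12 in KA mice 5, 25, 26 and 43 and at -0.16, -0.068, -0.067, 0.075 and -0.13 in KQ mice 8, 27, 28, 44 and 45. KA mouse 5 was the lowest of the 9 and KQ mouse 44 the highest. The list median was -0.075 without KA mouse 5 and -0.044 without KQ mouse 44. Without KA mouse 5, the potassium channel median was -0.058, with 4 genes lower and 3 higher at an unadjusted p under 0.05, and that of the sodium, calcium, HCN and leak channels -0.066. Without KQ mouse 44, the median of the sodium, calcium, HCN and leak channels was -0.073 and that of the GABA list -0.081. Each of 3 ranges of the sample number (1 to 20, 21 to 40 and 41 to 46) holds both groups. The first holds KA mouse 5 and KQ mouse 8, the second KA mice 25 and 26 and KQ mice 27 and 28. The third holds KA mouse 43 and KQ mice 44 and 45. Within these ranges the glutamate receptor median was -0.11, -0.041 and -0.084. Medians within ranges, here and below, are over plain differences in mean log2 CPM and not over the fitted fold changes. The GABA list stood at -0.10, -0.0044, -0.13 and -0.11 in KA and at 0.052, -0.033, -0.027, 0.25 and 0.0022 in KQ mice, with KA mouse 25 the only KA mouse inside the KQ range.

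Markers of the neurons themselves did not all follow. Of 16 interneuron markers, 13 were lower in KA (median -0.14, 2 with an unadjusted p under 0.05, and -0.077 without KQ mouse 45 or -0.083 without KA mouse 5), led by Reln, the secreted positional cue reelin (-0.32, SE 0.114), and Gad2, a GABA-synthesis enzyme (-0.35, SE 0.149). Their summed level ran from 789 to 1040 CPM in KA and from 955 to 1150 CPM in KQ mice, and no marker was at 0. Pvalb, the calcium buffer of fast-spiking interneurons, was at 16.9 to 30.4 CPM in KA and 22.8 to 39 CPM in KQ mice. Of 15 CA1 and CA3 pyramidal markers, 7 were higher and 8 lower (median -0.014), with 0 higher and 3 lower at an unadjusted p under 0.05. Elavl4, described above and on this list, was lower in every KA mouse. Of 10 CA2 markers, 6 were higher and 4 lower (median 0.024), with 1 higher and 0 lower at that threshold. Both medians were near that of all genes, 0.0035. The part of the interneuron markers in the lower level of channel and GABA genes was not tested.

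Dentate granule neurons, the input cells of the hippocampal circuit, were the neurons whose markers were higher in KA. All 12 granule neuron markers were higher, with a median log2 fold change of 0.20, and 2 of them had an unadjusted p under 0.05. The markers summed to 733 to 835 CPM in KA and to 453 to 813 CPM in KQ mice, and none was at 0. C1ql2, a synaptic organizer of mossy fibres, stood at 120, 61.2, 92.6 and 73 CPM in KA and at 63.2, 46.4, 68.9, 52.8 and 26.4 CPM in KQ mice, with mouse 45 the lowest (0.75, SE 0.309, edgeR adjusted p = 0.408). Rasl10a, a Ras-like GTPase, stood at 59.7, 34.7, 59.4 and 42.1 CPM against 40.7, 25.6, 30.2, 29.9 and 30.2 CPM, where only KQ mouse 8 reached the KA range (0.65, SE 0.246, edgeR adjusted p = 0.40). The mean over the list was -0.14, -0.16, -0.15 and 0.082 in KA and -0.58, -0.44, -0.054, -0.22 and -0.85 in KQ mice, so mouse 28 overlapped with KA and mouse 45 was farthest below. Without mouse 45 the median was 0.16, with 9 of 12 markers higher, and within the ranges of the sample number it was 0.42, 0.082 and 0.52.

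The clustered protocadherins, cell-surface adhesion proteins that give neurons individual identities and lie in gene arrays, were mostly lower in KA. Of 58 genes, 49 were lower in KA (median -0.21), 12 with an unadjusted p under 0.05. Every KA mouse was below every KQ mouse for 4 of the 58, where the share over all genes was 1.3%. Pcdha1 stood at 0.33, 0.38, 0.42 and 0.431 CPM in KA and at 0.534, 0.918, 0.663, 0.837 and 0.69 CPM in KQ mice (-0.90, SE 0.331, edgeR adjusted p = 0.389). Its groups did not overlap. Pcdhga1 was at -0.56 (SE 0.181), Pcdhga8 at -0.51 (SE 0.191) and Pcdhga2 at -0.33 (SE 0.123), with overlap in each. The list mean was -0.28, -0.42, -0.31 and -0.27 in KA and -0.10, -0.26, -0.16, 0.20 and -0.28 in KQ mice. Only mouse 45 of the KQ mice lay among the KA mice, and mouse 44 stood highest. The median was -0.17, -0.12 and -0.29 within the ranges of the sample number, and -0.10 without mouse 44, with 2 genes at an unadjusted p under 0.05. Exons shared within a protocadherin cluster make the split of reads between its members uncertain.

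Zinc finger genes named Zfp, many of them KRAB-type repressors of transposons, were mostly lower in KA as well. Of 392 genes, 274 were lower (median -0.10), and 70 were lower and 12 higher at an unadjusted p under 0.05. Every KA mouse was below every KQ mouse for 10 of the 392 and above for 4, where the shares over all genes were 1.3% and 1.03%. Zfp612 stood at 33.0, 38.7, 34.5 and 35.6 CPM in KA and at 41.8, 50.8, 47.6, 47.2 and 47.7 CPM in KQ mice (-0.41, SE 0.0971, edgeR adjusted p = 0.306). Its groups did not overlap. Zfp458 did not overlap either, at 6.5 to 8.3 and 8.8 to 14.1 CPM (-0.52, SE 0.136, edgeR adjusted p = 0.346), and Zfp946 overlapped only in that KA mouse 25 and KQ mouse 45 both had 25.7 CPM (-0.36, SE 0.0906, edgeR adjusted p = 0.326). The list mean was -0.096, -0.11, -0.14 and -0.13 in KA and 0.019, -0.028, -0.067, 0.06 and -0.13 in KQ mice. KQ mouse 45 was among the KA mice and the other 4 KQ mice were above all of them. Within the ranges of the sample number the median was -0.14, -0.075 and -0.087. Transcripts of these genes are poor in GC, with a median of 44.4%, and with a trend on GC content and length removed, as described after the ribosome, the median was -0.0079, with 9 genes higher and 16 lower at an unadjusted p under 0.05.

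The cytosolic ribosome, the machine that translates mRNA, was mostly higher in KA. Of its 84 genes, 83 were higher in KA with a median log2 fold change of 0.34, and 62 were higher and 0 lower at an unadjusted p under 0.05. In 3 of the 84 every KA mouse stood above every KQ mouse, where the share over all genes was 1.03%. Rps27, a protein of the small subunit, stood at 12, 10.8, 8.1 and 9.9 CPM in KA and at 5.91, 7.91, 6.98, 5.94 and 8.6 CPM in KQ mice (0.53, SE 0.151, edgeR adjusted p = 0.346). Mouse 45 was the KQ mouse that reached the KA range. Rps10, of the same subunit, stood at 39.2, 34.4, 32 and 41.4 CPM against 21.5, 25.5, 27.1, 18 and 38.3 CPM, again with mouse 45 alone inside the KA range (0.49, SE 0.159, edgeR adjusted p = 0.361). Fau, a ribosomal protein made as a ubiquitin-like fusion, was at 0.46 (SE 0.143) and Rpl18, of the large subunit, at 0.44 (SE 0.144). The list mean was 0.53, 0.39, 0.25 and 0.40 in KA and -0.069, 0.055, 0.067, -0.30 and 0.41 in KQ mice. The 4 KQ mice other than 45 lay below all 4 KA mice, whereas mouse 45 was higher than 3 of them. The median was 0.44 without mouse 45, with 72 genes higher at an unadjusted p under 0.05, 0.27 without mouse 44, with 25 such genes, and 0.29 without KA mouse 5, with 27. Within the ranges of the sample number it was 0.57, 0.25 and 0.33. Ribosomal protein genes have many processed pseudogenes of near-identical sequence, so that their counts depend on how reads with several matches were assigned.

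The nuclear-encoded genes of the respiratory chain, which makes ATP in mitochondria, were also mostly higher. Of 74 genes, 68 were higher in KA (median 0.21), 7 of them at an unadjusted p under 0.05 and 0 lower. Ndufb4, a complex I subunit, stood at 4.18, 4.03, 3.62 and 4.07 CPM in KA and at 2.48, 3.27, 3.42, 3.0 and 2.98 CPM in KQ mice (0.39, SE 0.159, edgeR adjusted p = 0.406). Its groups did not overlap. Ndufa1, of the same complex, overlapped through mouse 45, at 23.2 to 28 CPM in KA and 13.2 to 27.3 CPM in KQ mice (0.42, SE 0.168, edgeR adjusted p = 0.405). The list mean was -0.088, 0.091, 0.028 and 0.10 in KA and -0.33, -0.17, -0.12, -0.53 and 0.20 in KQ mice, in the same arrangement as for the ribosome, with mouse 45 above all 4 KA mice. The median was 0.34 without mouse 45, with 50 genes at an unadjusted p under 0.05, and 0.12 without mouse 44, with 1 such gene. Without mouse 8 it was 0.17, with 0 such genes, and within the ranges of the sample number it was 0.24, 0.19 and 0.29.

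**Figure D2:**
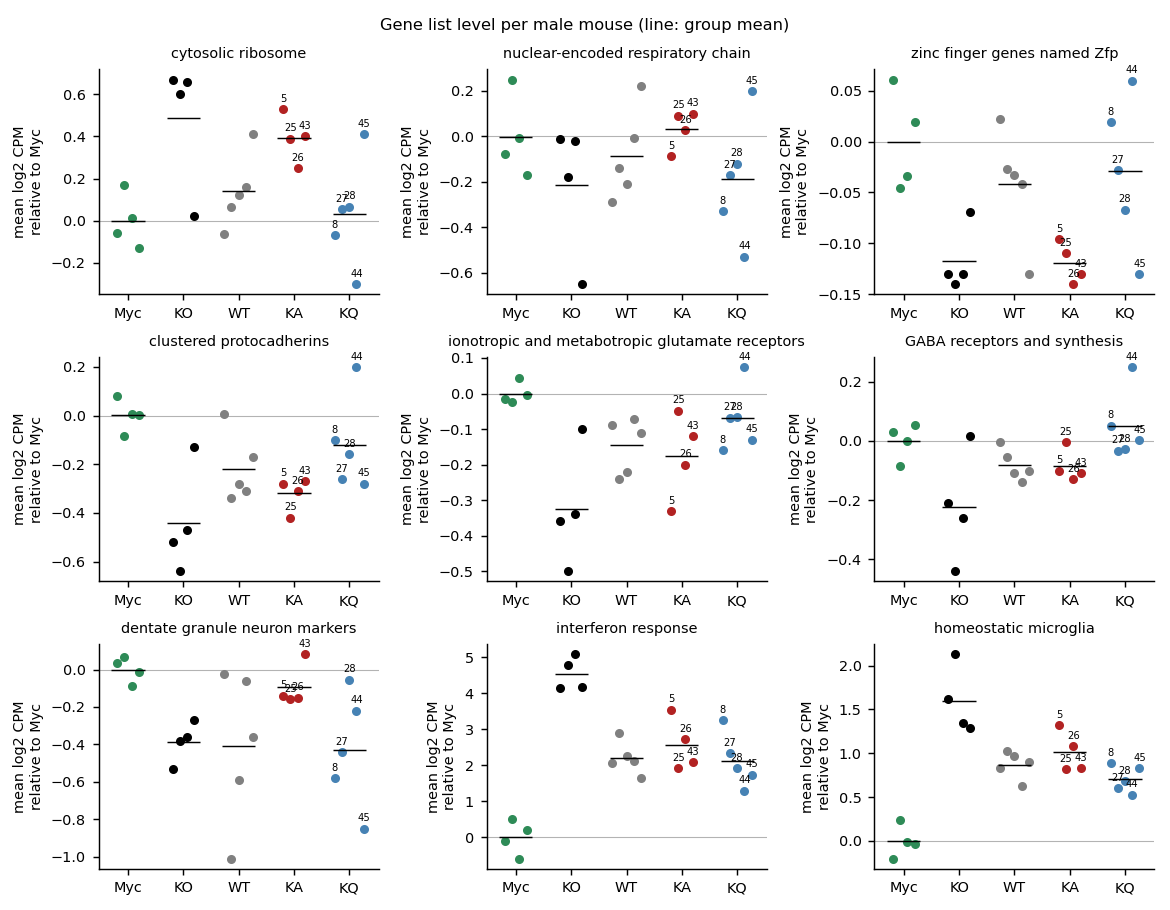
Mean log2 CPM of 9 gene lists in each male mouse relative to the mean of the Myc males (vertical axis), by group, with mouse numbers at the KA and KQ points and a line at each group mean. KQ mouse 45 lies with the KA mice for the ribosome (0.41) and the Zfp genes (-0.13), and KA mouse 5 (3.55) and KQ mouse 8 (3.25) have the most interferon response in their groups.

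Ribosomal and respiratory transcripts are short (median 1049 and 1166 bases), GABA transcripts are longer (4742 bases) and Zfp and GABA transcripts are poor in GC (44.4% and 43%), and levels by length and GC differed between the mice over all genes. Length and GC content of the canonical transcript were matched for 83.9% of the genes tested, and 14993 of these with a mean of at least 1 CPM were used. From the lowest to the highest of 5 equal bins of GC content, the median log2 fold change of KA over KQ was -0.13, -0.044, 0.015, 0.079 and 0.13. In the lowest bin 26 genes were higher and 745 lower in KA at an unadjusted p under 0.05, and in the highest 408 were higher and 28 lower. From the shortest to the longest of 5 bins, the median was 0.13, 0.067, 0.017, -0.024 and -0.086. Across genes, which are not independent replicates, Spearman's rho of the fold change was 0.46 with GC content and -0.34 with length.

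The slope separated the groups except for KQ mouse 45, in the same arrangement as the ribosome. The level of the GC-richest bin minus that of the GC-poorest was 0.046, 0.078, 0.14 and 0.20 in KA mice 5, 25, 26 and 43 and -0.35, -0.15, -0.013, -0.39 and 0.20 in KQ mice 8, 27, 28, 44 and 45, relative to Myc males. All KQ mice but mouse 45 were below all KA mice, mice 8 and 44 farthest, and mouse 45 equalled the highest KA mouse. WT males spanned -0.15 to 0.19 and Myc males -0.12 to 0.15. KA mice 5, 25 and 26 lay inside both ranges, KA mouse 43 and KQ mouse 45 just above them, and KQ mice 8 and 44 below them. The shortest minus the longest bin gave 0.17, 0.13, 0.19 and 0.21 in KA and -0.11, -0.026, 0.054, -0.27 and 0.22 in KQ mice. When the trend of each mouse on GC content and length was removed before the edgeR test, an alternative chosen after the data were seen, 0 genes passed, and 750 genes (2.64%) were higher and 1313 (4.62%) lower in KA at an unadjusted p under 0.05. The ribosome then had a median of 0.22 with 46 of 84 genes at an unadjusted p under 0.05, the respiratory chain 0.11 with 3, and the glutamate receptors and protocadherins stayed at -0.11 and -0.22. The GABA list went to -0.062, with 8 of 20 genes higher. What the slope comes from was not tested.

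**Figure D3:**
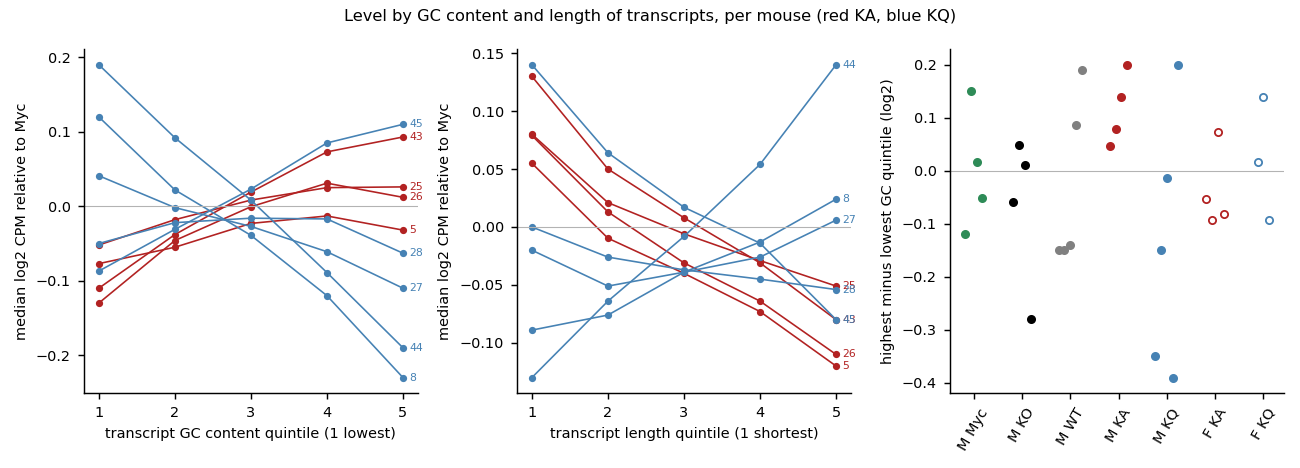
Median log2 CPM relative to Myc males in 5 bins of genes by transcript GC content (left) and length (middle), 1 line per KA (red) or KQ (blue) mouse with its number, and the difference between the highest and lowest GC bin per mouse in 7 groups of sex and virus (right; M male, F female). KQ mice 8 and 44 slope downwards with GC, to differences of -0.35 and -0.39, and KQ mouse 45 slopes upwards with the KA mice, at 0.20.

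The number of genes called also depended on which mouse was left out, most of all on mouse 45. Without it, edgeR called 1 gene higher in KA (Ipo13, a nuclear import receptor) and 4 lower (Klf7, Lrrc19, Zfp738 and Uprt, a pyrimidine salvage gene), all at an adjusted p of 0.0487. Ipo13 stood at 67.9, 73.3, 72.8 and 79.6 CPM in KA and at 58.9, 56.9, 58.1 and 59.7 CPM in KQ mice 8, 27, 28 and 44, and at 73.8 CPM in mouse 45. Uprt stood at 15.3 to 16.9 CPM in KA, at 19.9 to 27.4 CPM in the same 4 KQ mice and at 16.1 CPM in mouse 45. In both genes mouse 45 was at the KA level and the other KQ mice were not. This follows from how the genes were chosen, since edgeR called them only without mouse 45. For Klf7, Lrrc19 and Zfp738, called in the same setting, mouse 45 was above every KA mouse, like the other KQ mice. When the trend on GC content and length was removed as well, edgeR called 0 genes without mouse 45 (smallest adjusted p = 0.179). Without mouse 45, DESeq2 called 455 genes higher (3.37% of 13516) and 667 lower (4.93%) in KA, and 16 of the 24 genes it called with all mice were among them. Those calls hold 46 of the 84 ribosomal genes and 12 of the 74 respiratory genes, all higher, and 44 of the 392 Zfp genes as lower against 3 as higher. Mouse 45 lay among or above the KA mice in the mean of each of these lists. Leaving it out therefore moves the groups apart there by itself, and these counts are no separate result. Leaving out mouse 44 instead gave 704 genes higher and 1059 lower in edgeR at an unadjusted p under 0.05, the lowest numbers of any omission. After adjustment 0 genes passed there. Without KQ mouse 28, DESeq2 called 18 genes higher and 192 lower of the 8579 for which it gave an adjusted p. No label sets mouse 45 or 44 apart, and both carry the same group label.

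**Figure D4:**
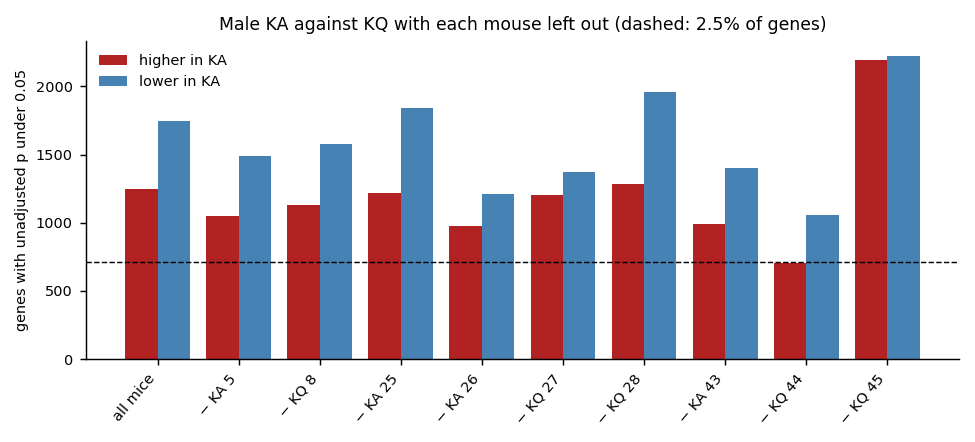
Genes with an unadjusted p under 0.05 (vertical axis, starting at 0) in the edgeR comparison of male KA and KQ with all mice and with each of the 9 mice left out, with red bars for genes higher and blue bars for genes lower in KA. The counts run from 704 and 1059 without KQ mouse 44 to 2194 and 2223 without KQ mouse 45.

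Interferon-induced genes form the antiviral programme that cells switch on after type I interferon binds its receptor. They were much higher in KO than in Myc males, with 46 of 46 genes called higher and a median log2 fold change of 4.49. Between KA and KQ, 45 of the 46 were higher in KA with a median of 0.47, and 15 were higher and 0 lower at an unadjusted p under 0.05. Many of these genes carry the interferon-stimulated response element in front of the gene, where an interferon-activated complex that contains IRF9 binds. The motif GAAANNGAAA (on either strand, TTTCNNTTTC being its reverse complement, with a gene counted once) was found between 250 bases before and 50 after the start in 20 of 31 interferon genes with a promoter in the RefSeq table (64.5%), against 3.9% of 19901 tested genes. The median log2 fold change was 0.33 for interferon genes with the motif and 0.52 for those without. Stretches of 2 genes with the motif in capitals are given on the gene's own strand, 5′ to 3′, for GRCm38.p6, at chr4:156200877-156200906 on the minus strand for Isg15 and at chr19:34583363-34583392 on the plus strand for Ifit3.
Isg15: tatgccgtagGAAAAGGAAAccgaaacaga
Ifit3: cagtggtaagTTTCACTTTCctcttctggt

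Isg15, a ubiquitin-like modifier and chosen for its motif, stood at 38.1, 14.7, 26.3 and 16.9 CPM in KA and at 22.8, 12.3, 10.9, 4.81 and 11.2 CPM in KQ mice (log2 fold change 0.96, SE 0.431, edgeR adjusted p = 0.436). Ifit3, which blocks viral RNA and was chosen likewise, stood at 208, 80.6, 167 and 91.5 CPM against 178, 92.8, 75.5, 53.6 and 69.5 CPM (0.55, SE 0.345, edgeR adjusted p = 0.587). In both, KA mouse 5 and KQ mouse 8 were the highest of their groups. Ifi27, a mitochondrial interferon product, had the smallest p of the list at 69.2 to 110 CPM in KA and 28.2 to 76.7 CPM in KQ mice (0.64, SE 0.199, edgeR adjusted p = 0.361). Ifi27l2a, its relative, stood at 10.3 to 20 and 2.05 to 12.7 CPM (1.00, SE 0.41, edgeR adjusted p = 0.406). Irf9, a subunit of the complex that binds the motif, stood at 59.5, 30.5, 41.3 and 36.9 CPM in KA and at 46.8, 26, 26.2, 21.1 and 26.5 CPM in KQ mice, where only KQ mouse 8 reached the KA range (0.52, SE 0.194, edgeR adjusted p = 0.398).

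The list mean was 3.55, 1.92, 2.72 and 2.10 in KA mice 5, 25, 26 and 43 and 3.25, 2.33, 1.93, 1.30 and 1.74 in KQ mice 8, 27, 28, 44 and 45, relative to Myc males. The groups overlapped over most of their range, and the mouse with the most interferon response in each group was the 1 with a sample number up to 20. Without KA mouse 5 the median was 0.12, with 25 of 46 genes higher and 1 at an unadjusted p under 0.05, and without KQ mouse 8 it was 0.89, with 46 of 46 higher and 34 at an unadjusted p under 0.05. Within the ranges of the sample number it was 0.25, 0.26 and 0.55. The 27 genes of MHC and antigen presentation had a median of 0.37, with 26 higher and 0 at an unadjusted p under 0.05, and a median of -0.16 without KA mouse 5. Their list mean ran from 1.64 to 3.50 in KA and from 1.05 to 3.07 in KQ mice. The 16 complement genes, tags for phagocytosis, were all higher (median 0.32, 1 at an unadjusted p under 0.05), and their median was -0.082 without KA mouse 5. C1qa, a chain of the first complement component, had 172 to 465 CPM in KA and 121 to 306 CPM in KQ mice (0.48, SE 0.317, edgeR adjusted p = 0.608). Markers of T and NK cells were higher in 24 of 30 genes (median 0.23, 0 at an unadjusted p under 0.05) and, without KA mouse 5, in 3 of 30 (median -0.48). They had a summed level of 57.6 to 155 CPM in KA and 41.2 to 110 CPM in KQ mice and none at 0. Those of B and plasma cells, 6 higher and 10 lower (median -0.17, and -1.54 without KA mouse 5), summed to 24.2 to 1360 CPM in KA and 284 to 1420 CPM in KQ mice. The part of infiltrating cells in the interferon values was not tested.

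Microglia, the resident macrophages of brain, had marker levels that varied less within a group. Of 15 homeostatic microglia markers, 14 were higher in KA (median 0.28), 3 at an unadjusted p under 0.05. Without KA mouse 5 the median was 0.19 with 14 higher, and 0 were higher and 1 lower at an unadjusted p under 0.05. The sum of the markers ran from 737 to 1060 CPM in KA and from 604 to 818 CPM in KQ mice, with none at 0. Selplg, an adhesion ligand, stood at 40.3, 31.2, 34.5 and 34.9 CPM in KA and at 27.6, 24.8, 27.5, 29.6 and 35.2 CPM in KQ mice, with mouse 45 inside the KA range (0.28, SE 0.107, edgeR adjusted p = 0.399). Tmem119, which marks resident microglia, stood at 33.9, 20.4, 29.1 and 27.0 CPM against 22.9, 18.9, 20.4, 18.2 and 28.0 CPM (0.35, SE 0.159, edgeR adjusted p = 0.44). The list mean was 1.32, 0.82, 1.08 and 0.83 in KA and 0.89, 0.60, 0.68, 0.53 and 0.83 in KQ mice, with mice 8 and 45 in the KA range. Of 23 phagocytic microglia and macrophage genes, 20 were higher (median 0.23, 0 at an unadjusted p under 0.05), and 14 without KA mouse 5 (median 0.053). Ccl6, a macrophage chemokine, had 11.1 to 17.3 CPM in KA and 6.98 to 10.9 CPM in KQ mice and did not overlap (0.74, SE 0.383, edgeR adjusted p = 0.496). Of 17 reactive glia genes, 16 were higher (median 0.24, and -0.28 without KA mouse 5). Lcn2, a secreted marker of reactive astrocytes, stood at 15.3 CPM in KA mouse 5, at 0.253 to 1.5 CPM in the other KA mice and at 0.789 to 3.24 CPM in KQ mice.

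Of the other glia, 14 astrocyte markers (6 higher, median -0.035) and 16 oligodendrocyte markers (6 higher, median -0.028) were near all genes. Of 11 markers of oligodendrocyte precursors, 6 were lower (median -0.10, and 0.05 without KQ mouse 45), and of 22 genes of vessels and fibroblasts 18 were higher (median 0.14, and 0.022 without KA mouse 5). Pdgfra and Vcan, which mark precursors, were at -0.29 (SE 0.094) and -0.31 (SE 0.114), both at an edgeR adjusted p of at least 0.361. Bmp4, on the same list, went the other way, with 45 to 123 raw counts in KA and 34 to 59 in KQ mice. At an unadjusted p under 0.05, 1 gene of the list was higher and 2 were lower in KA. Choroid plexus markers, from the ventricle next to the hippocampus, were higher in 18 of 19 genes with a median of 0.70 and 0 at an unadjusted p under 0.05, and the median was 0.39 without KA mouse 5. Ttr, the thyroid hormone carrier that the plexus secretes, stood at 384, 28.7, 284 and 140 CPM in KA and at 178, 183, 17.2, 25.7 and 63.6 CPM in KQ mice. Both groups held mice with high and with low values, and the summed markers ran from 288 to 787 CPM in KA and from 244 to 545 CPM in KQ mice, with none at 0. Ependymal cilia genes had a median of 0.34, with 13 of 16 higher, and 9 blood genes one of -0.31, with 8 lower, which was -0.13 without KQ mouse 45 and -0.52 without KQ mouse 44.

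Lists for Wnt, Notch and the H2A.Z machinery were near the median of all genes, 0.0035. The median was 0.034 over 71 Wnt genes, with 3 higher and 4 lower at an unadjusted p under 0.05, among them Apc, the scaffold that targets beta-catenin for destruction, at 239, 256, 247 and 243 CPM in KA and 304, 289, 264, 405 and 263 CPM in KQ mice without overlap (-0.31, SE 0.117, edgeR adjusted p = 0.40). Over 31 Notch genes it was 0.058, with 3 higher and 1 lower at the same threshold. Beside Mfng, Dtx3, a Deltex ubiquitin ligase, stood at 137 to 161 CPM in KA and 108 to 154 CPM in KQ mice (0.27, SE 0.0864, edgeR adjusted p = 0.361). Over 30 genes for histone variants and the H2A.Z machinery, including the acetyltransferase and exchange complexes that place and modify H2A.Z, it was 0.041, with 1 gene at an unadjusted p under 0.05. That gene, H3f3a for histone H3.3, was higher in every KA mouse, at 104, 105, 106 and 114 CPM against 85, 89.6, 90.3, 90.1 and 100 CPM (0.24, SE 0.0838, edgeR adjusted p = 0.386). Of 61 replication-dependent histone genes, 40 were higher and 21 lower (median 0.23), 7 higher and 0 lower at an unadjusted p under 0.05, and with the GC and length trend removed the median was 0.029. Of 39 genes of DNA replication and mitosis, 25 were higher and 14 lower (median 0.066), 0 higher and 1 lower at an unadjusted p under 0.05. Of 20 p53 target genes, 13 were higher and 7 lower (median 0.085), 2 higher and 1 lower at an unadjusted p under 0.05. Bax, which permeabilises mitochondria in apoptosis, was higher in every KA mouse, at 28.8 to 30.5 CPM against 16.3 to 27.7 CPM (0.38, SE 0.16, edgeR adjusted p = 0.413). Bbc3, its activator, was at 0.54 (SE 0.154, edgeR adjusted p = 0.346). Ccng1, on the same list, was lower in KA, at -0.25. Of 22 immediate early genes, 15 were higher and 7 lower (median 0.13), 1 in each direction at an unadjusted p under 0.05, and of 29 germline genes 18 were lower (median -0.17). Without KQ mouse 44 these medians were 0.051 and -0.093. Of 15 markers of adult neurogenesis 10 were lower (median -0.077), and of 12 markers of thalamus and striatum, which lie next to the hippocampus, 7 were lower (median -0.12).

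**Figure D5:**
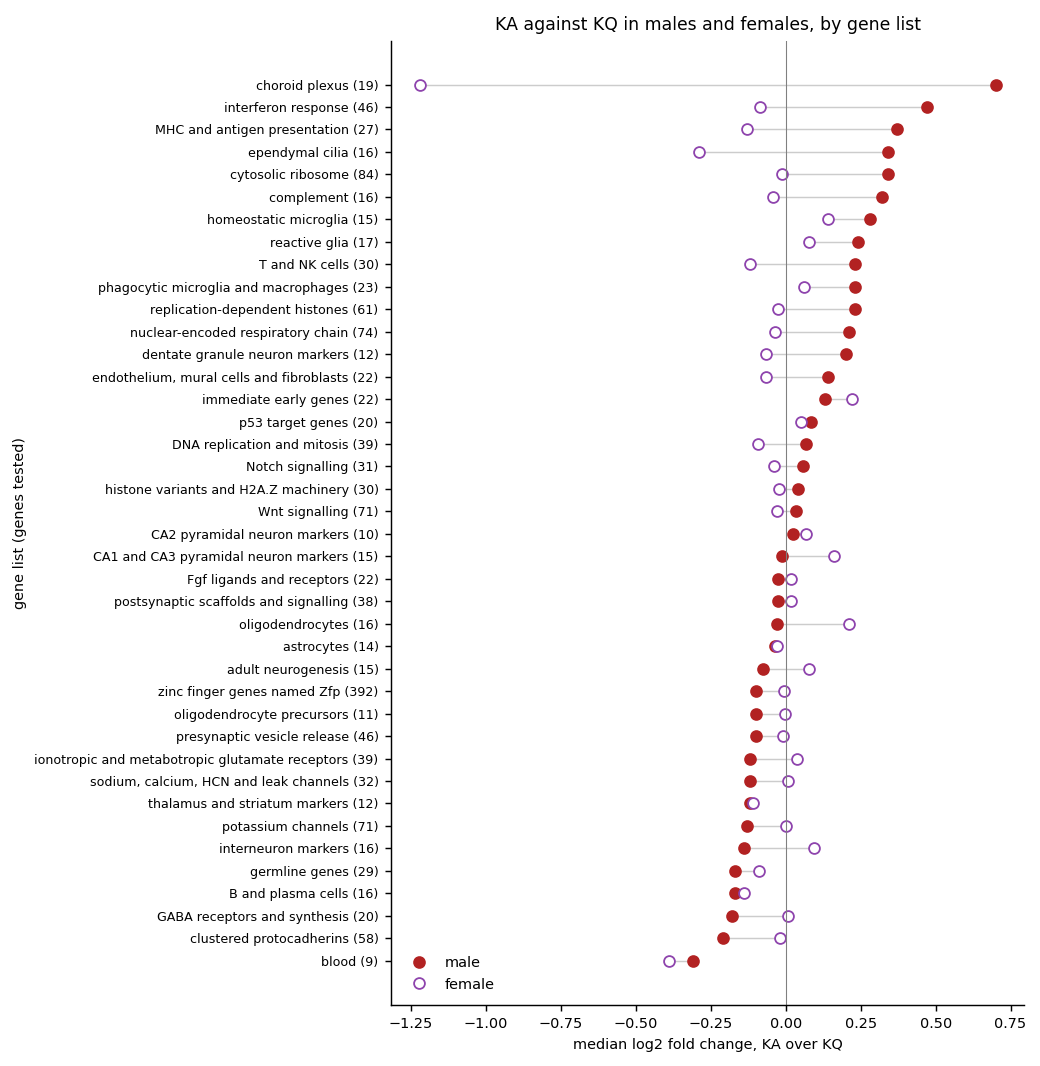
Median log2 fold change of KA over KQ (horizontal axis) in 40 gene lists, with the number of genes tested in parentheses, in males (filled) and females (open). The male medians run from -0.31 for blood to 0.70 for choroid plexus, and the female median of the choroid plexus list is -1.22.

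Genes that differed between KO and Myc males, called raised or lowered by deletion here, were used as a scale for the mutants. KO and Myc males share no mouse with either group. They differ in Cre itself as well, and the labels give the Myc mice as WT, so an effect of deletion cannot be told apart from these. In KO against Myc males, 4900 genes (17.2%) rose and 4104 (14.4%) fell at an edgeR adjusted p under 0.05. Of the 4900 raised by deletion, 66.5% were higher in KA than in KQ, with a median log2 fold change of 0.11, and 6.27% were higher and 2.06% lower at an unadjusted p under 0.05. Of the 4104 lowered by deletion, 42% were higher in KA, with a median of -0.032, and 3.36% were higher and 12.2% lower. Genes not called between KO and Myc males had a median of -0.013. Mouse by mouse, the mean over the raised genes, in log2 CPM relative to Myc, was 1.10, 0.47, 0.68 and 0.54 in KA mice. It was 0.87, 0.73, 0.53, 0.41 and 0.54 in KQ mice. The mean over the lowered genes was -0.37, -0.18, -0.27 and -0.20 in KA and -0.30, -0.23, -0.18, -0.18 and -0.16 in KQ mice. The groups overlapped in both, with KA mouse 5 farthest from Myc in each. Leaving out 1 mouse moved the median log2 fold change of KA over KQ among the raised genes between -0.024 and 0.17, the lowest without KA mouse 5.

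The males with the unmutated replacement gave a second scale, though KA and KQ then share the same 5 WT mice. Against WT, edgeR called 0 genes in KA and 0 in KQ. At an unadjusted p under 0.05, 1439 genes (5.06%) differed between KA and WT and 1159 (4.07%) between KQ and WT, against 1422 for 5% of genes, and DESeq2 called 21 and 10. List medians side by side were 0.25 (KA over WT) and -0.11 (KQ over WT) for the ribosome, 0.10 and -0.089 for the respiratory chain, -0.084 and 0.016 for Zfp genes, -0.091 and 0.12 for protocadherins, -0.046 and 0.15 for GABA genes, 0.47 and -0.10 for interferon genes and 0.19 and -0.027 for granule neuron markers.

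In females, edgeR called 0 genes between KA and KQ, with 229 genes (0.805%) higher and 366 (1.29%) lower in KA at an unadjusted p under 0.05. DESeq2 called 7, all immunoglobulin variable genes, and 1, Tph1, a serotonin-synthesis enzyme. Of the 1245 genes higher in male KA at an unadjusted p under 0.05, 34.8% were also higher in female KA, and of the 1748 lower, 45.2% were also lower. Over all genes tested, 46.4% were higher in female KA. The male and female difference of KA over KQ was tested directly as an interaction, where 0 genes passed with edgeR (smallest adjusted p = 0.317), 1620 (5.69%) had an unadjusted p under 0.05, and DESeq2 called 10, 9 of them immunoglobulin variable genes and the other Gnb3. Female medians were -0.011 for the ribosome, -0.037 for the respiratory chain, -0.0056 for Zfp genes, -0.02 for protocadherins, -0.086 for interferon genes and -0.065 for granule neuron markers. In the interaction, 17 of 84 ribosomal genes, 33 of 392 Zfp genes, 3 of 46 interferon genes and 0 of 19 choroid plexus genes had an unadjusted p under 0.05. The genes with the smallest p in the interaction were Gnb3, Tulp1 and Crx, which serve photoreceptors and pineal cells, with Arap2, a GTPase-activating protein, and A330069K06Rik, an uncharacterised transcript. Gnb3 had 47 counts in KA mouse 43, 3 to 6 in the other KA mice and 0 to 7 in the KQ mice, and Crx had 9 counts in mouse 43 and 0 or 1 in each of the other 8 mice. In females the log2 fold change of KA over KQ was -3.39 (SE 0.819) for Gnb3 and -5.52 (SE 1.31) for Crx, larger in size than the male values of 2.42 (SE 0.798) and 2.94 (SE 1.37), and the edgeR adjusted p of the interaction was 0.317 for Gnb3 and 0.835 for Crx. Arap2 stood at 82.4 to 109 CPM in male KA and 103 to 151 CPM in male KQ mice (log2 fold change -0.35, SE 0.0894, edgeR adjusted p = 0.326).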

How the data were processed

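RNA-seq of hippocampal tissue from 40 mice was analysed, with 1 library per mouse, and 9 of them, the male KA and KQ mice, are described. Paired-end reads were mapped to GRCm39 with Rsubread by the authors, counted per gene with featureCounts and deposited as raw counts. The authors also deposited a normalized signal, counts divided by a size factor of DESeq2 1.38.3. For 30187 genes there, 100% of the values times the factor came within 0.001 of the raw count, with factors of 0.649 to 1.29. Only raw counts were used here. Total counts of the 9 mice were 26221299 to 42674291.

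The 28449 of 40853 genes whose counts summed to 20 or more were scaled with TMM and tested with edgeR 4.0.16 in R 4.3.3 (estimateDisp, robust glmQLFit, glmQLFTest), with 10 group means of sex and virus over all 40 mice and Benjamini-Hochberg adjustment. The scripts were tested on simulated data. SE is the log2 fold change over the root of F. List means per mouse used log2 CPM with a prior count of 2. GC content and length came from GENCODE vM39, promoters from RefSeq (GRCm38.p6).

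The members and the 40 lists were chosen with earlier results of these data known. Named genes are those the paper follows, the 5 smallest p-values in each direction and in the sex difference, and up to 4 members of a list with the smallest p, of which examples are given. Some genes are not reported here. Genes called by DESeq2 or without mouse 45, and Isg15 and Ifit3, were chosen after their values were seen. Alternatives were DESeq2 1.42.0 and its size factors, other filters, no robust estimation, fits of fewer groups, the range of the sample number as covariate and leaving out each mouse. DESeq2 without each mouse, DESeq2 with an absolute log2 fold change over 0.5, and removal of each mouse's trend on GC content and length through offsets were added after the data were seen.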

Additional observations from a re-analysis of the deposited data

Results flagged for a closer look

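Values of 1 mouse stood apart from the rest of its group, by Dixon's test at the 95% level, in 26 of 282 groups of values tested (9.22%) over the named genes and the lists in male KA and KQ mice. Chance flags about 1 in 20 groups, and many of these genes and lists vary together.

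KA mouse 5 had the highest value of the KA mice for B2m (1060 CPM, next 480), H2-T23 (102 CPM, next 38.1) and H2-M3 (8.68 CPM, next 4.93), all of MHC class I, for Lcn2 (15.3 CPM, next 1.5), for H2az2 (28.4 CPM, next 25.2) and for the mean of the T and NK cell list (3.35, next 1.71, in log2 CPM relative to Myc), and the lowest Pclo (196 CPM, next 223). KA mouse 43 had the highest Igkv14-126 (1.81 CPM), Gnb3 (1.27 CPM), Crx (0.243 CPM) and granule neuron list mean (0.082). KA mouse 26 had the highest mean of the adult neurogenesis list (0.56, next 0.27), and KA mouse 25 the lowest Inka1 (4.97 CPM, next 5.99).

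KQ mouse 45 had the highest value of the KQ mice for H2az1 (50.1 CPM, next 36.6), Kiss1r (5.79 CPM, next 4.12), Mfng (3.94 CPM, next 2.97), Ipo13 (73.8 CPM, next 59.7) and Crx (0.0246 CPM, a single count). KQ mouse 8 had the highest Irf9 (46.8 CPM, next 26.5), Rtp4 (30.3 CPM, next 15.9) and Gfap (2410 CPM, next 1500) and the lowest Scn1a (95 CPM, next 127) and Fgf17 (0 CPM, next 0.165). KQ mouse 44 had the highest Apc (405 CPM, next 304) and the lowest Trem2 (23 CPM, next 35.7), and KQ mouse 27 the highest Igkv14-126 (0.0236 CPM, a single count). No label sets these mice apart from others of their group.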

How the results depend on the processing

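With edgeR, every alternative that kept all 9 mice called 0 genes between male KA and KQ. Leaving out 1 mouse gave 0 to 1 higher and 0 to 4 lower genes, the most without KQ mouse 45. DESeq2 called 2 higher and 22 lower, 2 and 13 of these with an absolute log2 fold change over 0.5, and, with 1 mouse left out, 0 to 455 higher (18 without KQ 28, 9 without KA 25) and 5 to 667 lower (192 without KQ 28, 67 without KA 25, 25 without KA 5, 19 without KQ 8, 11 without KA 43, 9 without KQ 44, 6 without KA 26), the most without KQ mouse 45. Unadjusted counts ran from 704 to 2194 higher and from 1059 to 2223 lower with 1 mouse left out in edgeR, and from 750 to 1512 and 1239 to 1858 under the other alternatives. DESeq2 called 7 higher and 1 lower gene in females, 10 in the sex difference, 21 in KA and 10 in KQ against WT. Without female KQ mouse 38, edgeR called 1 gene lower in females and 1 in the sex difference. The median of genes lowered by deletion was -0.16 for those lowered by over 1 on the log2 scale.

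Of 40 list medians, 21 kept their sign in all 28 alternatives, the median of all genes moved by under 0.1 in each, and 18 values of named genes changed sign. H2az2 was at -0.0081 with the GC and length trend removed and at -0.0018 also without mouse 45. In that last setting Th was at 0.35, Arc at -0.049 and Fos at -0.049. Without KA mouse 5, B2m was at -0.098 (edgeR) and -0.11 (DESeq2), H2-T23 at -0.09 and -0.11, Lcn2 at -1.48 and -1.52, and Fos at -0.0093 with DESeq2. Th was at 0.073 and 0.072 without KA mouse 43 and at 0.37 and 0.36 without KQ mouse 45, and Fos at -0.058 and -0.07 without KQ mouse 44. With 1 mouse left out, the highest values were 0.64 for B2m, 0.96 for H2-T23, 1.53 for Lcn2 and 0.3 for Fos, and the lowest for Th was -0.19. The cause was not tested. No paired analysis was possible because no 2 mice share a number in the labels. The 4 and 5 mice of the groups limit the precision more than the depth does, since mice differed by more than counting error.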

Other observations

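Immunoglobulin and T cell receptor genes varied between single mice of both groups. Ighg2b, an antibody heavy chain constant gene, stood at 145, 0.684, 2.75 and 41.8 CPM in KA mice 5, 25, 26 and 43 and at 91.2, 377, 18.3, 12.8 and 80 CPM in KQ mice 8, 27, 28, 44 and 45. Ighg2c, of the same family, stood at 189, 0.532, 6.85 and 51 CPM against 34, 275, 134, 27.3 and 240 CPM. KA mice 25 and 26 had the least of both genes, and the groups overlapped. Trbc2, a T cell receptor constant gene, stood at 2.39, 0.482, 0.446 and 0.809 CPM against 1.87, 0.707, 0.558, 0.216 and 0.37 CPM, with KA mouse 5 and KQ mouse 8 highest. The 5 immunoglobulin variable genes that DESeq2 called lower in KA were Igkv4-72, Ighv4-1, Igkv4-79, Ighv1-74 and Igkv3-5, and none of them separated the groups mouse by mouse.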
